A study of Mus musculus with 30 samples.

Results

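Toll-like receptor genes and Myd88, the adaptor that most of these receptors share, were followed across 30 arrays of mouse blood cells. The set held 10 genes, Tlr1, Tlr2, Tlr3, Tlr4, Tlr6, Tlr7, Tlr8, Tlr9, Tlr13 and Myd88, and its members were chosen by name, as every non-control probe that the array files assign to them. That gave 14 probes on 33 spots, and 9 of the 10 genes passed the filter on dim probes, out of 25210 genes or unnamed transcripts that passed it.

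The study compared mice injected with oleic acid (OA) with mice injected with physiological serum, at 1, 1.5, 3, 4, 18 and 24 h after injection, in peripheral blood mononuclear cells (PBMC), the lymphocyte and monocyte fraction of blood. OA, a fatty acid, is used in animals to produce acute lung injury by intravenous injection. Agilent mouse arrays of 1 colour were read, 1 array per mouse.

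OA mice received an injection of 200 µl into the tail vein, with an OA dose given in the labels as 1.2 µl per g body weight, and gave 3, 3, 3, 2, 3 and 3 arrays at the 6 times (17 in all). Serum mice received the same volume of physiological serum by the same route and gave 3, 3, 2, 1, 2 and 2 arrays (13 in all). All were female C57BL/6 mice aged 6 weeks, and all were anesthetized with xylazine and ketamine before injection. The 4 h serum group is a single mouse, which the tests assume to vary like the other groups.

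Toll-like receptors are membrane proteins that bind conserved parts of microbes. Tlr2 pairs with Tlr1 or Tlr6 at the cell surface to bind bacterial lipoproteins, and Tlr4, with its partner Ly96, binds lipopolysaccharide. Tlr3, Tlr7, Tlr8, Tlr9 and the mouse receptor Tlr13 act in endosomes on nucleic acids. All of them except Tlr3 signal through Myd88 towards NF-kB and cytokine genes, and in blood they are known from monocytes, neutrophils, B cells and dendritic cells in different combinations.

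Levels are given on the log2 scale, as the processed signal minus the 75th percentile of its array, so 0 is that percentile and a difference of 1 is a doubling. Levels of different probes were not compared with each other. The 75th percentile lay at signals of 40.2 to 152, and 35.4% to 65.1% of spots were well above background per array. Markers of the lymphocytes and monocytes that define PBMC were present: 8 of 8 measured B cell markers, 7 of 8 T cell markers and 7 of 8 classical monocyte markers were well above background on all 30 arrays. The 10 markers of mature neutrophils, cells that a density gradient is meant to remove, were too. The 3 arrays that stood apart had median correlations with the other arrays of 0.835 for the second OA mouse at 4 h, 0.797 for the first serum mouse at 24 h and 0.885 for the third serum mouse at 1.5 h, against at least 0.922 for the other 27.

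Among the surface receptors, Tlr1 and Tlr2 were well above background on all 30 arrays. Tlr1 ranged over 1.04, 2.38 and 3.01 (lowest, median, highest) in OA mice and over 1.29, 2.15 and 2.86 in serum mice. Tlr2 ranged over −0.02, 1.38 and 3.03 in OA mice and over −0.39, 1.17 and 2.50 in serum mice. Tlr6 was well above background on 27 arrays, 17 of 17 in OA mice and 10 of 13 in serum mice. Its levels were −1.24, −0.15 and 1.13 in OA mice and −2.47, −0.55 and 0.66 in serum mice. Tlr4 was dim: the brighter of its probes was well above background on 14 of 17 OA arrays and 5 of 13 serum arrays, at −2.96, −1.77 and −1.23 in OA mice and −3.51, −2.44 and −0.95 in serum mice. Detection also differed between arrays and slides. Tlr4 at −1.46 on an OA 1 h array of slide 1 was not well above background, while −2.96 on an OA 3 h array of slide 5 was. Slide 5 held OA arrays only, and every array without detected Tlr6 lay on slide 1. The detection counts of Tlr4 and Tlr6 therefore do not compare the treatments alone. The other probe that the array files assign to Tlr4 was above background on 2 arrays. It lies 86547 bases away, farther than the length of the RefSeq gene (chr4:66827551-66846581, GRCm38.p6), so it was not taken as a second reading of Tlr4.

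Among the endosomal receptors, Tlr7, Tlr9 and Tlr13 were well above background on all 30 arrays, while Tlr3, the receptor for double-stranded RNA, was above background on 0 of 30 and was not tested. Tlr13, which binds bacterial ribosomal RNA, had group means that spanned 2.71 between its highest group (OA 3 h) and its lowest (serum 24 h). Its levels were 0.58, 2.95 and 3.92 in OA mice and 0.41, 2.33 and 3.57 in serum mice. Tlr9, the receptor for unmethylated CpG DNA, was at 2.47, 3.09 and 4.55 in OA mice and 2.64, 3.59 and 4.11 in serum mice, so the ranges overlapped over most of their width. Tlr7, a receptor for single-stranded RNA, was at 1.09, 1.73 and 2.42 in OA mice and 1.35, 1.94 and 3.02 in serum mice on its brighter probe. Tlr8, on its brighter probe, was above background on 11 of 17 OA arrays and 9 of 13 serum arrays. It was at −3.25, −2.16 and 0.38 in OA mice and −3.78, −1.61 and −0.18 in serum mice. The other Tlr8 probe was above background on 2 of 30 arrays. Myd88 was above background on every array, at 1.46, 3.03 and 3.69 in OA mice and 1.29, 2.71 and 3.58 in serum mice.

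**Figure D1:**
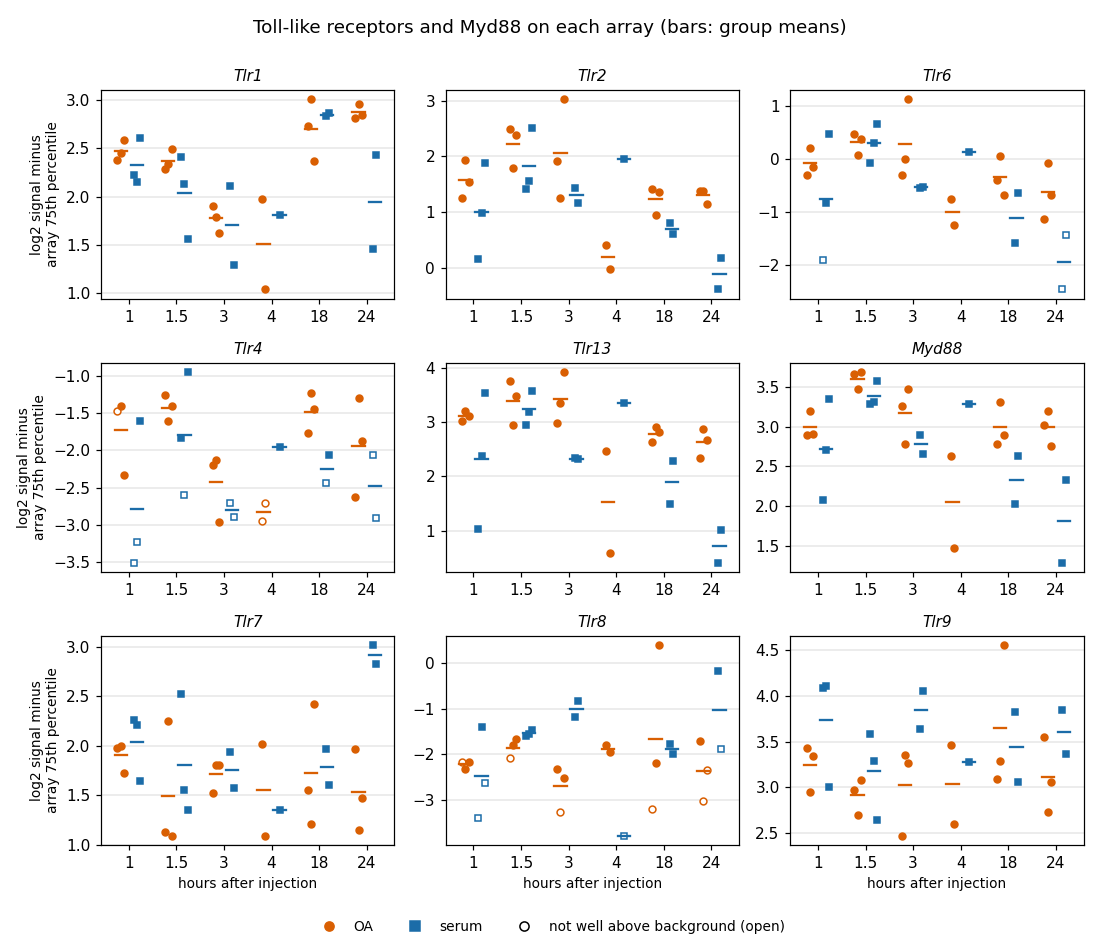
Log2 level (signal minus the array's 75th percentile) of the 9 tested members on each of the 30 arrays, by hours after injection. OA mice are circles and serum mice squares, open where the probe was not well above background, and bars are group means. At 24 h the 3 OA mice lie above both serum mice for Tlr1, Tlr2, Tlr6, Tlr13 and Myd88, and below them for Tlr7. Tlr7 is drawn on its brighter probe, and its other detected probe, not drawn, goes the other way at 24 h.

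Tlr2 and Myd88 were printed on 10 spots each. The SD between spots of an array had a median of 0.0941 for Tlr2 and 0.0792 for Myd88. The SD between mice of a group had a median of 0.346 for Tlr2 and 0.279 for Myd88. Repeated spots share the labelling, hybridisation and scaling of their array, so their SD covers only the noise between spots, and the SD between mice also holds the error of the array.

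Tlr2, Tlr6, Tlr13 and Myd88 varied together from array to array. Over the 30 arrays the 6 correlations among them lay between 0.885 (Tlr2 with Tlr6) and 0.936 (Tlr6 with Tlr13), and between 0.676 and 0.859 after each group's mean was subtracted. The correlations of Tlr1 with Tlr2, Tlr6, Tlr13 and Myd88 were lower, at 0.05, 0.04, 0.18 and 0.28, and 0.05, 0.28, 0.36 and 0.57 after each group's mean was subtracted. Tlr7, on its brighter probe, and Tlr9 correlated with each other (0.577) and negatively with Tlr6 (−0.550 and −0.482). The other detected Tlr7 probe correlated at −0.22 with the brighter one and was not set against the other members. All of these values share arrays and scaling and are given as a description.

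Because these members moved together, their promoters are shown, as the 250 bases before the annotated start in RefSeq (GRCm38.p6), 5′ to 3′ along the gene. The table held 10 promoters of 8 members and none was listed for Tlr4 or Tlr7. Capitals mark matches, on either strand, to 3 motifs: GGG, 3 free bases and TTCC for NF-kB, GAGGAA for PU.1 and TTGCNNAA for C/EBP. The Tlr2 promoter lies at chr3:83841609-83841858, minus strand, the distal of 2 listed Tlr6 starts, shown for its NF-kB match, at chr5:64960049-64960298, minus strand, Tlr13 at chrX:106143025-106143274, plus strand, and Myd88 at chr9:119340019-119340268, minus strand.
Tlr2: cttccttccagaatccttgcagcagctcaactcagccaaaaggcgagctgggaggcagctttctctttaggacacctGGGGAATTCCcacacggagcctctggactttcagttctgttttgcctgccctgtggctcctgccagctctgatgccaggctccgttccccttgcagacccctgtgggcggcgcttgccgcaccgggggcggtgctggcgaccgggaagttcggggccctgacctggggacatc
Tlr6: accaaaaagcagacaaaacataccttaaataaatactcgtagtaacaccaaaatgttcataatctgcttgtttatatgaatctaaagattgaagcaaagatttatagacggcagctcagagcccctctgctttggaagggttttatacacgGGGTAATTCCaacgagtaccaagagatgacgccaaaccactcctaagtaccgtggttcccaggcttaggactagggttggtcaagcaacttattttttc
Tlr13: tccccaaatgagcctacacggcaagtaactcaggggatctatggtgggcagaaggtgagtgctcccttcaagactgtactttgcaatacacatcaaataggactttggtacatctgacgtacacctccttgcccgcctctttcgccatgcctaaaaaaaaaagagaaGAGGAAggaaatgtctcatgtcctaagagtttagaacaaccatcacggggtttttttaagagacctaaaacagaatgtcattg
Myd88: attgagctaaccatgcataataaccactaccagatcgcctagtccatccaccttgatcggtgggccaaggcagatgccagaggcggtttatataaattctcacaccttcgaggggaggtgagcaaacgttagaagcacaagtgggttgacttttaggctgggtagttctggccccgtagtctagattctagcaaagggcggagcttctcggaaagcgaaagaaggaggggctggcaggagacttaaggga
Tlr2 held GGGGAATTCC and this Tlr6 start held GGGTAATTCC, both matches to the NF-kB letters, Tlr13 held GAGGAA, and Myd88 held none of the 3 motifs in this window. The other listed Tlr6 start, at chr5:64959167-64959416, minus strand, held 0 matches to the NF-kB letters and 1 to the C/EBP letters. Over the 10 promoters, 3 held the NF-kB letters, 4 the PU.1 letters and 3 the C/EBP letters. The shares among all 32841 promoters of the same length were 4.65%, 23.3% and 9.57%. A match is a description of the letters, and the 4 genes that varied together share no motif among these 3.

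The comparison of OA with serum mice at 24 h gave the members' only calls. Tlr13, Tlr2, Myd88 and Tlr1 were higher in OA mice and Tlr7, on its brighter probe, was lower. These 5 of the 9 tested members passed an adjusted p of 0.05 (limma, Benjamini-Hochberg over all genes), at a time when 29.7% of all tested genes did (13.1% higher and 16.6% lower). The other detected Tlr7 probe was higher in OA mice by 2.07, so the Tlr7 call gives no direction for the gene.

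Tlr13 was at 2.33, 2.88 and 2.67 in OA mice, against 0.41 and 1.01 in serum mice. Every OA mouse lay above both serum mice, and the difference was 1.92 (SE 0.54, limma adjusted p = 0.0220). Tlr2 was at 1.38, 1.37 and 1.15 in OA mice, against −0.39 and 0.17 in serum mice, again without overlap, and differed by 1.41 (SE 0.48, adjusted p = 0.0353, limma). Myd88 was at 3.03, 3.20 and 2.76 in OA mice, against 1.29 and 2.33 in serum mice, a difference of 1.19 (SE 0.39, adjusted p = 0.0331, limma). The 2 serum mice differed from each other nearly as much as the group means did. Tlr1 was at 2.81, 2.96 and 2.85 in OA mice, against 1.46 and 2.43 in serum mice, and its difference of 0.93 (SE 0.35) was just past the threshold (limma adjusted p = 0.0496). The Tlr1 call was lost in 18 of the 25 fits that left out an array of another time (adjusted p 0.0503 to 0.0587, limma), in 4 of the 5 that left out a 24 h array, with no filter on dim probes (0.0508) and with every probe tested (0.0535). Serum replicate 1 was the lowest of the 5 arrays for all 4 of these genes.

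Tlr6, which pairs with Tlr2, showed the same order of mice without passing the test. It was at −1.15, −0.08 and −0.68 in OA mice, against −2.47 and −1.44 in serum mice, where it was not well above background on either array. Set against the detection limit of those arrays it was at least 1.83-fold higher in OA mice (limma adjusted p = 0.0649). Tlr4 was at −2.63, −1.30 and −1.87 in OA mice and at −2.06 and −2.91 in serum mice, so the groups overlapped (difference 0.55, SE 0.52). Quantile normalization called Tlr4 and Tlr6 higher (1.69 and 2.23, limma adjusted p = 0.0371 and 0.0262) and did not call Myd88 or Tlr1, while normexp background correction gave −0.27 for Tlr4 and 0.28 for Tlr6, neither called. Tlr8 differed by −1.32 (SE 0.71, limma adjusted p = 0.145) and Tlr9 by −0.49 (SE 0.46, limma adjusted p = 0.409), both with overlapping groups. Counted without a test, 6 of the 9 members did not overlap between the groups at 24 h, against 55.9% of all genes.

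These 24 h calls rested on single arrays. Without serum 24 h replicate 1, 0 members were called (lowest adjusted p 0.490, limma), and 0.151% of all genes were. Tlr13 then differed by 1.62, Tlr2 by 1.13, Myd88 by 0.66, Tlr1 by 0.44 and Tlr7 by −1.30, each with the same sign. Leaving out OA replicate 1 or OA replicate 2 also gave 0 calls (lowest adjusted p 0.0596 and 0.0518), leaving out OA replicate 3 gave 2 (Tlr13 and Myd88), and leaving out serum replicate 2 gave 7. Both serum arrays lay on slide 1 and the OA arrays on slides 5, 3 and 2, so no slide held both treatments at 24 h and slide and treatment cannot be told apart within a slide. OA replicate 1 lay on slide 5, which was scanned on another day than slides 1 to 4. A fit with slide as a block made 0 calls, with Tlr13 at 1.96 (adjusted p = 0.141, limma).

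**Figure D2:**
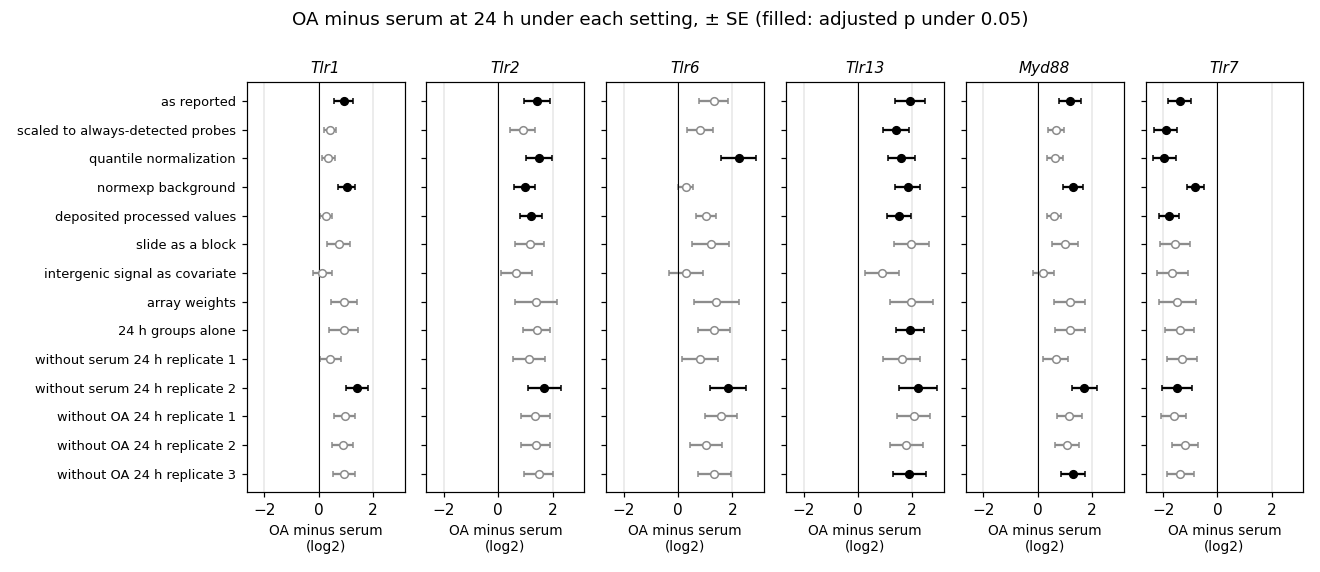
OA minus serum at 24 h (log2, x axis) for the 5 called members and Tlr6 under the settings named on the rows. Bars are the SE of each fit, and points are filled where the adjusted p was under 0.05. Tlr7 is drawn on its brighter probe, and the mean of both its detected probes, which gave 0.34, is not drawn. The differences keep their sign in all of the settings drawn, and 0 of the points are filled without serum 24 h replicate 1.

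Several array-wide measures moved with these genes at 24 h. Genes detected on all 30 arrays, to which the 5 called members belong, had a median difference of 0.61 between OA and serum mice, against −0.04 over all genes tested. Tested alone, 25.7% of those 11805 genes were called, and 90.6% of these calls were higher in OA mice. With arrays scaled to the median of those probes, Tlr13 differed by 1.41 and Tlr7 by −1.91 and both were still called, while Tlr2 differed by 0.90, Myd88 by 0.68 and Tlr1 by 0.42 and were not. That scaling moved the median of all genes to −0.55, and the share of calls that were higher in OA mice to 21.2%, against 44.0% as first scaled. The mean signal of 16194 probes for intergenic transcripts, relative to the always-detected probes, was −6.22, −6.01 and −5.45 in OA mice and −3.47 and −4.75 in serum mice. Over the 30 arrays it correlated negatively with Tlr1, Tlr2, Tlr6, Tlr13 and Myd88 (r from −0.744 to −0.603). With it as a covariate 0 members were called. Tlr13 then differed by 0.89, Tlr2 by 0.67, Tlr6 by 0.29, Myd88 by 0.21, Tlr1 by 0.14 and Tlr7 by −1.66.

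Markers of blood cell types moved at 24 h as well. Patrolling monocyte markers averaged 2.37, 2.94 and 3.01 in OA mice, against 0.27 and 0.83 in serum mice, and 4 of 6 were called higher, such as Cx3cr1 at 3.18 (SE 0.69). Classical monocyte markers averaged 2.88, 2.80 and 2.64 in OA mice, against 0.54 and 1.80 in serum mice, with 4 of 8 measured markers called higher, Csf1r by 2.36 (SE 0.48) among them. B cell markers averaged 4.47, 4.60 and 4.75 in OA mice, against 2.70 and 4.13 in serum mice, with 4 of 8 called higher. Conventional dendritic cell markers had 3 of 7 called higher, and plasmacytoid dendritic and T cell markers 1 of 7 and 1 of 8. All 7 NK cell and 6 of 8 platelet markers were higher in OA mice, with 0 called. Erythroid and immature neutrophil granule markers went mostly the other way, with 1 of 6 and 1 of 8 higher. The 1 higher immature neutrophil granule marker was called, while 0 markers of these 2 lists were called lower. Over all genes 13.1% were called higher. Most of the monocyte and B cell markers were detected on all 30 arrays, and of the 11805 such genes, tested alone, 2745 were called higher. Serum replicate 1, among the 3 arrays that stood apart, was the lower serum mouse for the monocyte and B cell lists. The marker calls include that array, and how they change without it is not given here. Mature neutrophil markers overlapped, at 2.98, 4.86 and 4.16 in OA mice and 3.69 and 3.94 in serum mice, with 0 of 10 called. Markers of lung epithelium, of which 3 of 5 were measured, averaged −4.54, −4.23 and −3.44 in OA mice, against 1.48 and 0.10 in serum mice, and Sftpc, a surfactant protein of the lung, differed by −7.00 (SE 0.56). In bulk RNA fewer cells of a type and less RNA per cell cannot be told apart, and the part of these marker shifts in the members' differences was not tested.

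Tlr7 gave opposite answers on its probes. The brighter probe, A_55_P2050932, was at 1.97, 1.15 and 1.47 in OA mice at 24 h, against 3.02 and 2.83 in serum mice, a difference of −1.39 (SE 0.43, limma adjusted p = 0.0271). Probe A_55_P2129047, which starts 283 bases away, was at 0.90, 1.33 and 1.21 in OA mice, against −1.86 and 0.01 in serum mice, a difference of 2.07 (SE 0.53, adjusted p = 0.0181 over all kept probes, limma). The first probe put every OA mouse below both serum mice and the second put every OA mouse above them. Over the 30 arrays the probes correlated at −0.22, and at −0.05 without the 3 arrays that stood apart. The mean of both probes differed by 0.34 (limma adjusted p = 0.528), so the array gave no single direction for Tlr7.

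The first 30 of each probe's 60 bases are shown because the probes differ in composition. They are written 5′ to 3′, on the minus strand of mm9 at chrX:163742893-163742922 for the first and chrX:163743176-163743205 for the second, with an alternating CT run of 11 bases in capitals.
A_55_P2050932: TCTCTCTCTCTgatactgaactgtaccaga
A_55_P2129047: cataaatgaaggtctgaatttttcctaaca
The first probe opens with the run and the second holds none in this stretch. Whether the run bears on the signal was not tested. The third Tlr7 probe was above background on 1 of 30 arrays.

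**Figure D3:**
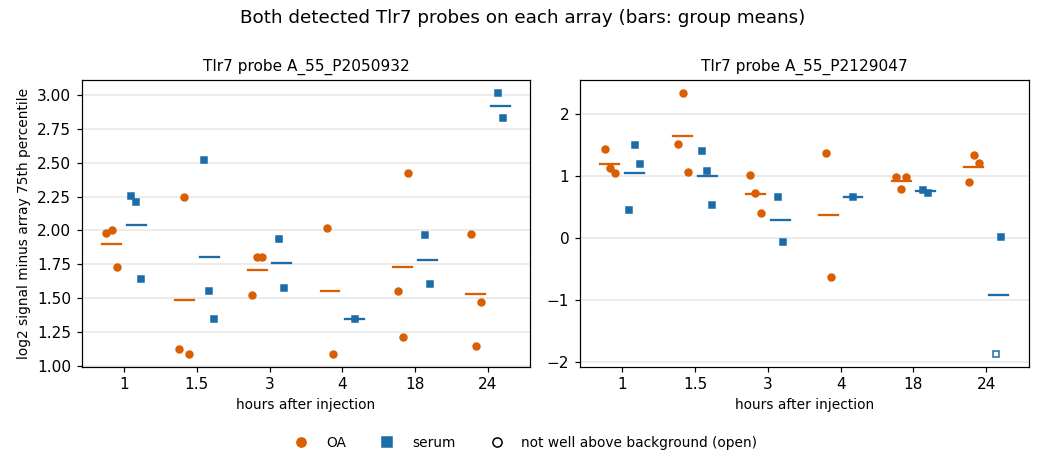
Log2 level of Tlr7 on each array by its 2 detected probes, by hours after injection, with OA mice as circles and serum mice as squares (open where not well above background) and bars at group means. At 24 h OA mice lie below serum mice on A_55_P2050932, and above them on A_55_P2129047.

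Between 1 and 3 h no member passed the test. The tests called 0 of 9 members at 1, 1.5 and 3 h, as they called 0% of all genes (limma). At an unadjusted p under 0.05 there was 1 member at 1 h (Tlr4, against 5.39% of genes), 0 at 1.5 h (9.96%) and 1 at 3 h (Tlr8, 7.74%). Tlr13 was at 3.02, 3.21 and 3.11 in OA mice at 1 h, against 1.03, 2.38 and 3.54 in serum mice, so the serum mice spread over the whole range of the OA mice and beyond. At 1.5 h it was at 3.75, 2.95 and 3.48 in OA mice and at 2.94, 3.19 and 3.57 in serum mice. At 3 h it was at 2.99, 3.35 and 3.92 in OA mice, against 2.33 and 2.32 in serum mice, without overlap but with a difference of 1.09 (SE 0.54) that missed the threshold (limma adjusted p = 0.653). Within the 1 slide that held both treatments at 3 h, the Tlr13 difference was 1.03.

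Tlr8 was lower in OA than in serum mice at 1.5 and 3 h, without being called, while its difference at 1 h was 0.26. It was at −2.08, −1.81 and −1.67 in OA mice at 1.5 h, against −1.61, −1.56 and −1.47 in serum mice. At 3 h it was at −2.33, −3.25 and −2.51 in OA mice, against −1.18 and −0.85 in serum mice, a difference of −1.68 (SE 0.71, limma adjusted p = 0.630). Both comparisons were without overlap, although several of these arrays were close to background. Counted without a test, groups did not overlap for 0 members at 1 h (11.9% of genes), for Tlr8 at 1.5 h (24.1%), and for Tlr6, Tlr13, Tlr8 and Tlr9 at 3 h (30.4%).

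At 4 h the members that varied together lay on the opposite side to 24 h, lower in OA mice, against a single serum mouse. Tlr2 was at 0.41 and −0.02 in OA mice, against 1.95 in the serum mouse (difference −1.76, SE 0.64). Tlr13 was at 2.46 and 0.58 in OA mice, against 3.35 (difference −1.83, SE 0.73), and Myd88 at 2.64 and 1.46, against 3.29 (difference −1.24, SE 0.53). Neither these nor any other member was called (limma, lowest adjusted p 0.447, and 0% of genes). At an unadjusted p under 0.05 there were 3 members, against 10.9% of genes, and 6 of 9 did not overlap, against 71.1% of genes. OA replicate 2, the lower mouse for all 3 genes, is among the 3 arrays that stood apart, and on the slide that it shares with the serum mouse the differences were −1.98 for Tlr2, −2.77 for Tlr13 and −1.83 for Myd88. Classical monocyte markers averaged 1.75 and 0.45 in these OA mice, against 2.93 in the serum mouse, and mature neutrophil markers 3.79 and 3.36, against 4.95. Their part in the differences was not tested.

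Tlr8 and Tlr4 gave bounds at 4 h, which cover the detection limit of these arrays and not the spread between mice. Tlr8 was at −1.79 and −1.96 in OA mice and was not well above background in the serum mouse, so it was at least 2.21-fold higher in OA mice (limma adjusted p = 0.463). Tlr4 was not well above background in either OA mouse and was at least 1.69-fold lower there than in the serum mouse (limma adjusted p = 0.567).

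At 18 h the members that varied together again lay higher in OA mice. Tlr13 was at 2.63, 2.91 and 2.81 in OA mice, against 1.49 and 2.29 in serum mice. Tlr2 was at 1.41, 0.95 and 1.36 in OA mice, against 0.80 and 0.60 in serum mice, and Myd88 at 2.79, 3.31 and 2.89, against 2.03 and 2.63. For these 3 genes and Tlr4 the groups did not overlap, 4 of 9 members against 6.96% of all genes. The differences were 0.89 for Tlr13 (SE 0.54), 0.54 for Tlr2 (SE 0.48), 0.67 for Myd88 (SE 0.39) and 0.77 for Tlr4 (SE 0.52). The test called 0 members and 0% of genes (limma, adjusted p 1.00 for each), and 0 members had an unadjusted p under 0.05, against 0.988% of genes. On the 1 slide that held both treatments the differences were 0.62, 0.35, 0.69 and 0.83 in the same order.

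**Figure D4:**
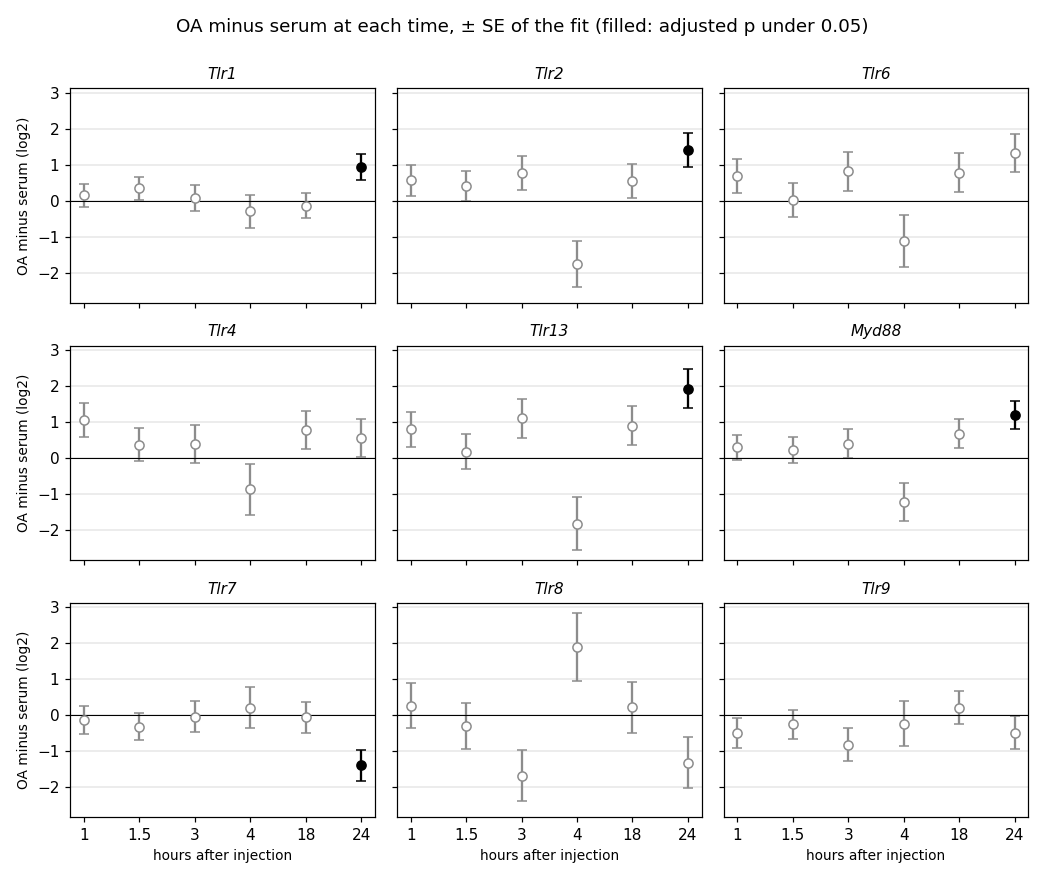
OA minus serum (log2, y axis) for the 9 tested members at each time, with the SE of the fit and filled points where the adjusted p was under 0.05. Tlr2, Tlr6, Tlr13 and Myd88 lie below 0 at 4 h and above 0 at 18 and 24 h, and the only filled points are the 5 at 24 h. Tlr7 is drawn on its brighter probe, and its other detected probe, not drawn, lies above 0 at 24 h.

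The direct test of a change in the OA effect with time did not call any member. The difference at 18 and 24 h minus that at 1 to 4 h was 1.35 for Tlr13 (SE 0.48), 1.01 for Myd88 (SE 0.35), 0.98 for Tlr2 (SE 0.42) and 0.95 for Tlr6 (SE 0.47). The lowest adjusted p was 0.251 (limma), 3 members had an unadjusted p under 0.05, against 14.4% of genes, and 0% of genes were called. Without serum 24 h replicate 2 there was 1 call (adjusted p = 0.0470, limma). The mean difference over the 6 times was 0.50 for Tlr13 (SE 0.23) and between −0.35 and 0.41 for the others, with 0 members and 0.00397% of genes called (limma). Tlr7 was taken there on its brighter probe, and its other detected probe gave 0.525 (SE 0.225). At an unadjusted p under 0.05 there was 1 member of 9, against 14.6% of genes.

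In OA mice Tlr1 was at 2.38, 2.45 and 2.58 at 1 h, at 2.29, 2.34 and 2.49 at 1.5 h, and at 1.90, 1.79 and 1.63 at 3 h. It was at 1.98 and 1.04 at 4 h, at 2.73, 3.01 and 2.37 at 18 h, and at 2.81, 2.96 and 2.85 at 24 h. The lowest OA levels were thus at 3 and 4 h and the highest at 18 and 24 h. The late groups minus the early ones differed by 0.76 (SE 0.20), which was not called (limma adjusted p = 0.114, with 0.163% of genes called). The same difference was 0.40 for Tlr4 and 0.33 for Tlr9 in OA mice. In serum mice it was 0.43 for Tlr1, 0.62 for Tlr7 on its brighter probe and 0.74 for Tlr8. The other detected Tlr7 probe gave −0.84 (SE 0.36) in serum mice, and no test set one member against another. In OA mice the Tlr1 difference was called with arrays scaled to the always-detected probes (adjusted p = 0.0179, limma) and without OA 4 h replicate 1 (adjusted p = 0.0391, limma). B cell markers averaged 4.85, 4.60, 4.04, 3.10, 4.67 and 4.61 in OA mice at the 6 times, with their lowest values at 3 and 4 h as well, and the part of this in the Tlr1 levels was not tested.

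Tlr13, Tlr6, Tlr2 and Myd88 had their larger late minus early differences in serum mice. In OA mice these were −0.16 for Tlr13 (SE 0.30), −0.36 for Tlr6 (SE 0.30), −0.24 for Tlr2 (SE 0.27) and 0.04 for Myd88 (SE 0.22). In serum mice they were −1.51 for Tlr13 (SE 0.37), −1.31 for Tlr6 (SE 0.37), −1.22 for Tlr2 (SE 0.32) and −0.98 for Myd88 (SE 0.27). In serum mice 5 members had an unadjusted p under 0.05, Tlr7 on its brighter probe among them, against 10.0% of genes. None was called (limma adjusted p from 0.114 to 0.184 for Tlr13, Tlr6, Tlr2 and Myd88, with 0.155% of genes called). The count was 4 without serum 24 h replicate 2 and 1 without serum 1 h replicate 1, and the deposited table of processed values called 3. All 10 mature neutrophil markers were lower in late than in early serum mice, with a median difference of −1.14 and 0 called. F tests over all times called 0 members for the OA groups, the serum groups or their difference, against 0.171%, 0.0595% and 0.00794% of genes (limma). At an unadjusted p under 0.05 there were 4, 4 and 3 of the 9 members, against 18.2%, 13% and 16.6% of genes.

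Other genes of the pathway were taken from 8 lists of 66 genes, of which 60 passed the filter. At 24 h 12 of the 60 were called, 10 higher and 2 lower, against 29.7% of all genes, and their median difference was 0.60, against −0.04 over all genes. The 42 that were detected on all 30 arrays had a median of 0.68, against 0.61 over all such genes. Ly86, the partner of the receptor-like protein Cd180, was higher in OA mice by 1.93 (SE 0.48, limma adjusted p = 0.0174). Among NF-kB subunits Rela was higher by 1.47 (SE 0.44) and Rel lower by 3.48 (SE 0.98). The kinases Map3k7 and Chuk, which act between the receptor complex and NF-kB, were higher by 1.18 (SE 0.36) and 1.18 (SE 0.36), and Cyld, a deubiquitinase that restrains NF-kB signalling, by 1.37 (SE 0.39). Other settings, chosen for these lists after the data were seen, moved these values. With arrays scaled to the always-detected probes the median difference was 0.09, with 7 called higher and 4 lower. Calls fell to 0 of 60 (limma) without serum 24 h replicate 1 (median 0.29, lowest adjusted p 0.252), without OA 24 h replicate 1 (0.78, 0.0571), with slide as a block (0.39, 0.156), with the intergenic signal as a covariate (−0.06, 0.999) and with array weights (0.62, 0.287). They were 27 higher and 2 lower without serum 24 h replicate 2, 4 and 2 without OA 24 h replicate 2, and 5 and 2 without OA 24 h replicate 3.

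By role, the 24 h calls were 0 of 3 other Toll-like receptors, 1 of 6 co-receptors, 0 of 3 folding and trafficking factors, 0 of 2 adaptors, 3 of 15 kinases and ubiquitin ligases, 5 of 10 transcription factors, 2 of 10 inhibitors and 1 of 11 cytokine targets. At the other 5 times 0 of 60 were called (limma), with 2, 7, 7, 13 and 3 at an unadjusted p under 0.05, against 5.39%, 9.96%, 7.74%, 10.9% and 0.988% of genes. The lowest p values there belonged to Il1b and Ptgs2 at 1 h (2.13 and 2.06 higher in OA mice), Ccl2 and Tnfaip3 at 1.5 h (1.72 and 1.53), and Cxcl10 and Lbp at 3 h (2.62 and 1.47). At 4 h they belonged to Tirap (−1.88), the adaptor of Tlr2 and Tlr4, and Il1a (4.21), and at 18 h to Cd14 (1.86), the lipopolysaccharide co-receptor, and Cxcl2 (2.11). Cd14 also gave the 1 call of the serum time course, where late groups were lower than early ones by 2.81 (SE 0.49, limma adjusted p = 0.0221).

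Members were then set against the mean level of 12 marker lists over the 30 arrays, 108 pairs in all, and 16 pairs had adjusted p values under 0.05 for both coefficients. The permutations exchanged all 30 arrays freely, across groups and slides. Their p values therefore do not allow for what arrays share by group, slide or scaling. Tlr1 followed the B cell markers (r = 0.876, rho = 0.865, adjusted permutation p = 0.000295 and 0.000360). That r was 0.832 without the 2 most extreme arrays and between 0.553 and 0.950 within the 5 slides. Tlr1 also passed with conventional dendritic cell (r = 0.750), NK cell (0.677), plasmacytoid dendritic cell (0.640) and lung epithelium markers (−0.459). With arrays scaled to the always-detected probes, r was 0.758 for Tlr1 with the B cell markers. For the other 4 lists it was then 0.609, 0.537, 0.332 and −0.230 in the same order. Tlr6 followed the mature neutrophil markers (r = 0.834, rho = 0.876, adjusted permutation p = 0.000295 and 0.000360), with r = 0.823 without 2 arrays and between 0.864 and 0.974 within slides. Tlr13, Myd88 and Tlr2 had r = 0.784, 0.725 and 0.713 with the same markers, rho = 0.841, 0.749 and 0.672, and positive values on all 5 slides.

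With classical monocyte markers r was 0.742 for Myd88, 0.703 for Tlr13 and 0.671 for Tlr2, and fell to 0.477, 0.449 and 0.494 without the 2 most extreme arrays. The Tlr13 pair was not among the 16, since its rho of 0.470 missed the threshold (adjusted permutation p = 0.0556). On the 5 slides those values ranged from −0.372 to 0.967 for Myd88, so the monocyte relation did not hold on every slide. Tlr9 followed the erythroid markers (r = 0.673, rho = 0.665, adjusted permutation p = 0.000295 and 0.00162), with r = 0.637 without 2 arrays, but between −0.311 and 0.810 within slides. Erythroid pairs also passed for Tlr7 on its brighter probe (r = 0.539) and, negatively, for Tlr2 (−0.498), Tlr6 (−0.569) and Myd88 (−0.572). Within slides r lay between −0.35 and 0.99 for Tlr7, −0.75 and 0.28 for Tlr2, −0.85 and −0.03 for Tlr6, and −0.87 and 0.50 for Myd88. Of these pairs only that of Tlr6 kept its sign on all 5 slides. Tlr4 and Tlr8 had no pair in which both coefficients passed.

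**Figure D5:**
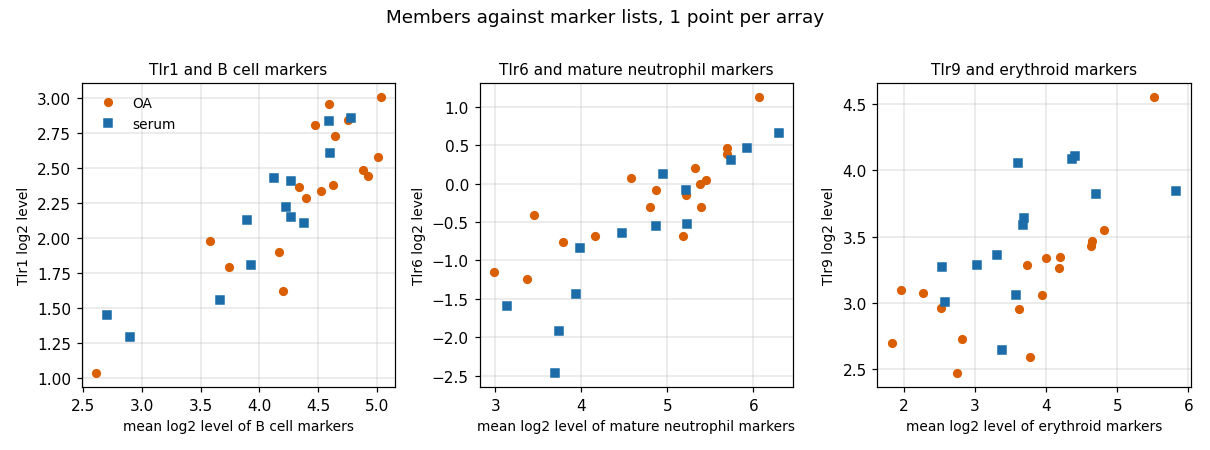
Log2 level of Tlr1, Tlr6 and Tlr9 (y axes) against the mean log2 level of B cell, mature neutrophil and erythroid markers (x axes), 1 point per array, OA mice as circles and serum mice as squares. Tlr1 and Tlr6 follow their lists in both treatments, with r = 0.876 and 0.834.

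The genes most like each member over the 30 arrays were sought among 8554 named genes detected on every array. Tlr13 was most like Cebpb (r = 0.957), Pla2g7 (0.952) and Sirpb1b (0.951), where the median gene had 0.444. Tlr6 shared Pla2g7 (0.943), beside Msra (0.930) and Adam8 (0.929). Tlr2 was most like Sqor (0.937), Ugt1a6b (0.926) and Ctsl (0.922), and Myd88 like Svil (0.955), Adssl1 (0.946) and Tgfbi (0.937). Tlr1 was most like Cyb561a3 (0.947), Srsf6 (0.945) and Tnfrsf13b (0.937). Tlr9 was most like Rilp (0.945) and Tlr7, on its brighter probe, like Erich5 (0.910). The best matches of Tlr4 (Noxred1, 0.771) and Tlr8 (Zbtb1, 0.733), both near background, were lower. These values share arrays and scaling and are descriptions.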

How the data were processed

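Expression of PBMC was measured on 30 arrays of 1 colour, 1 per mouse by the study's design text. The members and all gene lists were chosen with earlier results of these data known. The deposited intensity values are Feature Extraction 10.5.1.1 processed signals per the file headers and the submitters' processing notes, corrected for background within each array and not normalized between arrays. Probe positions are in mm9, per the file headers. The authors also deposited processed values, on a log2 scale, with column medians of 5.35 to 5.36 and all 30 columns matching their own array. Their centring and scaling are not stated. They correlated best with normexp-corrected, quantile-normalized signals (0.984) and were used only as an alternative.

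Control spots and outlier-marked spots (91 to 1408 per array) were left out, no spot was saturated, spots of a probe were averaged, and the 75th percentile of each array was subtracted from the log2 signal. Probes well above background on at least 3 arrays were kept, and the probe with the highest mean stood for its gene. limma 3.58.1 in R 4.3.3 fitted 12 groups, 1 for each treatment and time (18 residual degrees of freedom), with two-sided tests, Benjamini-Hochberg adjustment over all genes and a threshold of 0.05. Correlations with marker lists were tested with 100000 permutations, which cannot give a p under 1e-05 before adjustment. Code was tested on simulated data. For a probe below the background limit on all arrays of 1 group, a fold was given as "at least", against the higher of the probe's signal and the lowest signal among detected probes on each array. The arrays lay on 5 slides, and slide 5, which held 5 OA arrays and no serum array, was the only one scanned on the second of 2 days, so the slide block also takes up the scan day. Pathway genes were named by smallest p, at most 6 per comparison if called and otherwise 2, and the 3 genes of highest correlation were taken as most like a member. Promoters are RefSeq sequences and the number of arrays limits the precision of every value.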

Additional observations from a re-analysis of the deposited data

How the results depend on the processing

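The count of members called at 24 h (5 as reported) was 2 with arrays scaled to always-detected probes, 3 with the authors' deposited values, 2 with the replicate block, 1 with the 24 h groups alone, and 0 with slide as a block, with the intergenic signal as a covariate, with array weights, or without the 3 arrays of lowest median correlation. Leaving out 1 array at a time gave 0 to 7 calls at 24 h, 0 to 1 for the late minus early OA effect, 0 to 1 for the OA time course, 0 to 4 for the serum time course, and 0 for the other comparisons. The 1 called difference that changed sign was Tlr7 at 24 h, at 0.34 with the mean of its kept probes, which adds the probe that ran the other way. Array weights called 6 members at 1 h and 5 in the F test of OA groups, with a weight of 11.1 on OA 1 h replicate 3, and the cause was not tested. Tlr1 in the OA time course was called (1 member) by the always-detected scaling, quantile normalization, the deposited table and array weights, and the OA F test gave 1 call by the always-detected scaling and by the deposited table. In the serum time course quantile normalization and the filter of 30 arrays gave 1 call each, and 3 came from the deposited table. The cause was not tested for these. Of the calls at 24 h over all genes, 44.0% were higher in OA mice as reported, 21.2% with always-detected scaling, 56.3% with quantile normalization, 25.9% with no filter on dim probes, 90.6% among genes detected on all 30 arrays and 4.80% with the 24 h groups alone, and the number of calls was 7484 as reported and 9, 2 and 1 with slide, intergenic signal and array weights. Replicate numbers were not taken as pairs of mice in the reported fit. Deviations of same-numbered arrays from their group means correlated between −0.527 and 0.424. In groups of 2 or 3 arrays such deviations must oppose each other, so this cannot settle whether mice were paired. Over all alternatives, values of single members stayed on their side of the threshold 3748 times. Only the 5 calls at 24 h could be lost, so most of those values were uncalled before and after. Calls were lost 72 times, 18 of them Tlr1 at 24 h without an array of another time, and gained 28 times. With the replicate block Tlr13 (1.76) and Tlr7 (−1.34) were the 2 members called at 24 h. The single 4 h serum mouse, and Tlr3, Tlr4 and Tlr8 near background, limit what could be seen.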
